A study of Mus musculus with 4 samples.

Results

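Antiviral effectors are the proteins that interferon-stimulated cells make to block virus entry, replication or release. The 10 genes described here, *Rsad2*, *Cmpk2*, *Mx1*, *Mx2*, *Bst2*, *Ifitm3*, *Ifi44*, *Eif2ak2*, *Samhd1* and *Adar*, are such effectors from outside the IFIT and OAS families. They were chosen by name from 55450 gene rows, with the loading contrast of these libraries already known, so their difference between the groups is given as a description without a test. RNA-seq was performed on MLO-Y4 cells, an osteocyte-like line from mouse long bone with the genotype label WT, immortalised by SV40 large T antigen under the osteocalcin promoter. Unloaded and loaded cells were compared, each with 2 libraries (replicates 1 and 2). The loaded cells grew on silicone membranes coated with type I collagen and, at 60% confluency, were stretched equiaxially for 12 h (0.5 Hz, 20% strain). The unloaded cells reached the same confluency on standard 6-well plates and then spent 12 h in the loading system's incubator without stretch. Effects of stretch and those of the plate and its coating therefore cannot be told apart. The labels do not say that the replicates were separate cultures, so the replicate spread may be technical.

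Cells that detect viral nucleic acid, or their own double-stranded RNA, secrete interferon. Type I interferon binds its receptor, and the kinases JAK1 and TYK2 pass the signal to transcription factors that enter the nucleus. There they bind the interferon-stimulated response element (ISRE) in promoters and switch on the effector genes, many of which are also transcribed at a low level in resting cells. The effectors act at different steps. IFITM3 and tetherin (*Bst2*) work at membranes, viperin (*Rsad2*), CMPK2 and SAMHD1 act on nucleotides, PKR (*Eif2ak2*) and ADAR1 (*Adar*) act through double-stranded RNA, and the MX proteins are GTPases.

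The libraries held between 28941994 and 32185693 counts. Of the osteocyte and osteoblast markers, *Pdpn*, *Gja1*, *Phex*, *Col1a1* and *Col1a2* were detected at 1270 or more counts in every library. *Dmp1* had 12 to 14 counts, *Sost* at most 4, and *Mepe* and *Ibsp* none. The summed level of 10 leukocyte markers was 1632 and 1643 CPM (counts scaled to the library's effective size by TMM) in unloaded cells and 1602 and 1609 CPM in loaded cells. Almost all of it was *Csf1r* (45688 to 50270 counts), whereas *Cd3e* was at 0 and *Ptprc* and *Itgam* did not pass 3 counts in any library. The macrophage marker *Cd68* had 162 and 141 counts unloaded against 99 and 84 loaded, and *Cd14* had 1525 and 1658 against 1342 and 1310. Their part in the results was not tested. Summed levels were at most 3.89 CPM for endothelial, 0.791 CPM for epithelial, 21.1 CPM for chondrocyte and 9.29 CPM for adipocyte markers. In bulk RNA, fewer cells that express a gene and less RNA per cell cannot be told apart.

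The promoters of the effectors are shown first because the ISRE is the sequence these genes are known for. RefSeq windows (GRCm38.p6, from 250 bases before to 50 bases after an annotated start) were matched by symbol for 8 of the 10 genes, *Mx1* and *Mx2* being the others. The ISRE core, GAAANNGAA followed by a further A, or its reverse complement, was found in 4 of the 10 windows of these genes, against 3.44% of 32851 windows of all genes. The core TTCNNNGAA of the gamma-activated sequence (GAS) was found in 5 of the 10 windows, against 8.30% of all windows. These belonged to *Samhd1*, *Adar*, *Ifitm3*, *Bst2* and *Eif2ak2*, and none to *Rsad2*, *Cmpk2* or *Ifi44*. The core TGACNNNGC of the antioxidant response element was found in 2 of the 10, those of *Rsad2* and *Ifi44*, against 12.4%. The 4 windows with the core are printed below in the gene's direction, with the core in capitals. They are followed by *Ifi44*, the effector with the largest difference between the groups. In its window the exact search found only the shorter core GAAANNGAA or TTCNNTTTC (in capitals, found in 8.56% of all windows).
Rsad2, chr12:26456403-26456702, minus strand: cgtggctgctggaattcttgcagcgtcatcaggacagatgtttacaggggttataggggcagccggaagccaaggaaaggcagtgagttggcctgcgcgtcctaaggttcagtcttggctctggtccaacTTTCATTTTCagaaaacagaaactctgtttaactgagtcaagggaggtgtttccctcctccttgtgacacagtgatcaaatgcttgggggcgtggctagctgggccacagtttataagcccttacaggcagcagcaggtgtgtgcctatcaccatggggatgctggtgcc
Bst2, chr8:71537423-71537722, minus strand: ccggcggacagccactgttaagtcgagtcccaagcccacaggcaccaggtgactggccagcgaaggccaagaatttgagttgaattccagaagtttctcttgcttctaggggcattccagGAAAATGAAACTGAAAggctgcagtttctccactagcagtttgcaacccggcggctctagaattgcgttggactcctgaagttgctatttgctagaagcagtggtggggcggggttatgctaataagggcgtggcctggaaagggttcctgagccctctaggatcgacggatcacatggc
Ifitm3, chr7:141010695-141010994, minus strand: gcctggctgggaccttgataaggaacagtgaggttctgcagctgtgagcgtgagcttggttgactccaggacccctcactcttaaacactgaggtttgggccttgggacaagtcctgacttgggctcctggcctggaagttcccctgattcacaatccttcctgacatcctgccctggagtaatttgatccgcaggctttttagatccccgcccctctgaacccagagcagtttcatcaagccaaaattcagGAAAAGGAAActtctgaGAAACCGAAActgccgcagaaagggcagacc
Eif2ak2, chr17:78882523-78882822, minus strand: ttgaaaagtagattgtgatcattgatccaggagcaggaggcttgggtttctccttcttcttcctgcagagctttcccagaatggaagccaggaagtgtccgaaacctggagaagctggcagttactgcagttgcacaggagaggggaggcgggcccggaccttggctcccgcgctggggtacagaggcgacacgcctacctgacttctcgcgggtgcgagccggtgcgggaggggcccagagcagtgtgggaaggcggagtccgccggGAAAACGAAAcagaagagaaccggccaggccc
Ifi44, chr3:151749861-151750160, minus strand: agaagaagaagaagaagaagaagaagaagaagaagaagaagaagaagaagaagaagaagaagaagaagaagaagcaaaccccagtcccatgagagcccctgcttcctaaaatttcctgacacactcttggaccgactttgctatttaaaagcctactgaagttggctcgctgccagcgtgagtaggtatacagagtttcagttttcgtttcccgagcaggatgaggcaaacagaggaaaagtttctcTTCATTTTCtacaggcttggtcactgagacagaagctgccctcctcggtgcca

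In *Rsad2* the core lay 110 bases before the start. In *Bst2* 2 overlapping matches lay 120 and 114 bases before it, and in *Ifitm3* and *Eif2ak2* the matches lay just behind the start, at bases 3 and 20 of the *Ifitm3* transcript and at base 19 of the *Eif2ak2* transcript. The windows of *Cmpk2* and *Samhd1* held neither core. *Adar* has 3 windows, and only the one furthest downstream (chr3:89730468-89730767) held the shorter core. A match describes letters in a window and is not evidence of binding. Cores with other letters or spacing were not searched, so a window without an exact match, as in *Ifi44* or *Adar*, may still hold an ISRE.

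All 10 effectors had a negative log2 fold change, lower in loaded than in unloaded cells, against 51.5% of the 16269 genes tested. For *Mx1* and *Adar* the sign turned, to 0.25 and 0.01, when 1 library was left out. *Ifi44*, *Rsad2*, *Cmpk2* and *Mx2* were 3.95- to 6.40-fold lower. *Eif2ak2*, *Ifitm3* and *Bst2* were 1.24- to 1.46-fold lower, *Samhd1* and *Adar* differed by less than 10%, and *Mx1* was too low to be compared. The median log2 fold change was -0.44 over the 10 genes and -0.01 over all tested genes. Without loaded replicate 1 the median of the effectors was -0.90, because *Mx1* had 4 counts in the other loaded library. In 8 of the 10 effectors both unloaded libraries were above both loaded libraries, which was also the case for 24.5% of all tested genes, while 22.1% had both loaded libraries higher. A log2 fold change of -1 or lower was reached by 4 effectors and by 3.36% of all tested genes.

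With edgeR's quasi-likelihood test and an adjusted p under 0.01, 1 effector, *Rsad2*, was called lower, against 0.0861% of all tested genes. At an adjusted p under 0.05 edgeR called 3 effectors lower, *Rsad2*, *Cmpk2* and *Ifi44*, against 0.565% of all tested genes. With DESeq2, which the study used, *Rsad2*, *Cmpk2*, *Mx2*, *Ifi44* and *Eif2ak2* were called lower, 5 effectors against 1.55% of all genes with an adjusted p. No effector was called higher by either tool, where edgeR called 0.0123% (0.338% at 0.05) and DESeq2 1.36% of all genes higher. These counts describe a list that was chosen on this contrast.

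**Figure D1:**
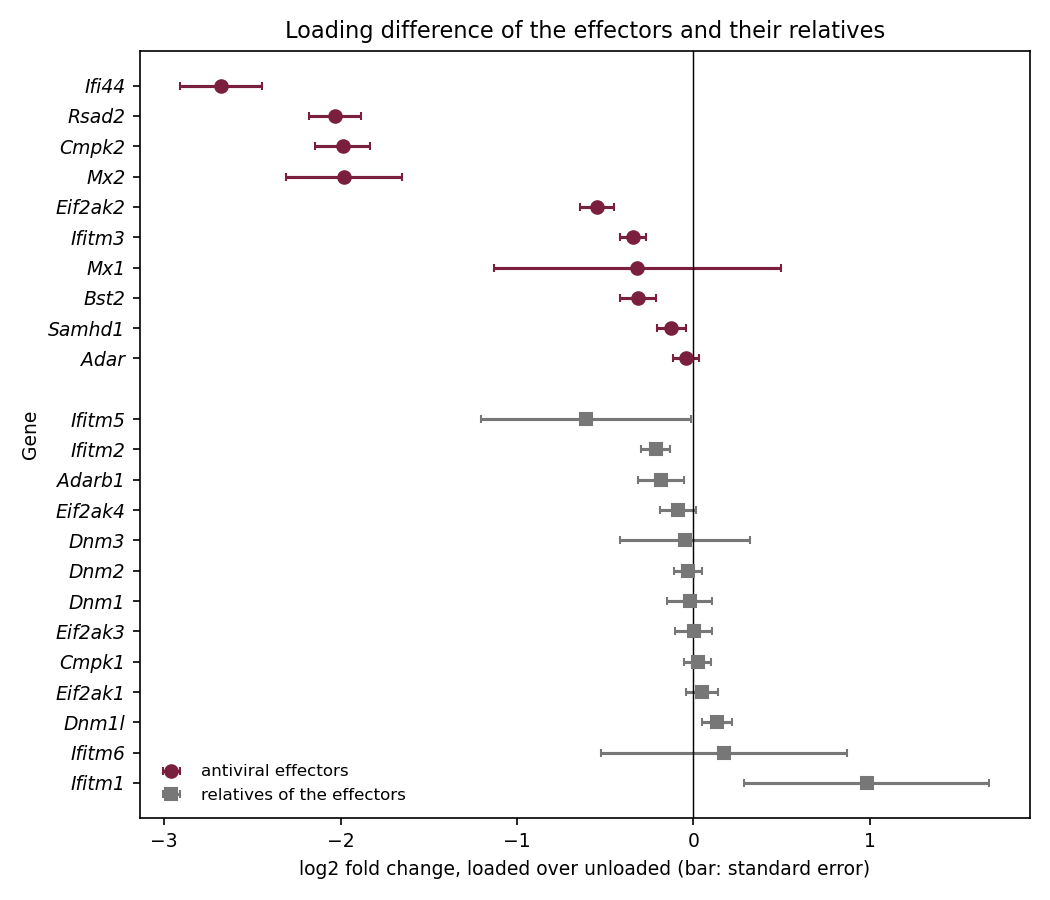
Log2 fold change of loaded over unloaded cells (x axis, edgeR estimate, bar = standard error from 2 libraries per group) for the 10 antiviral effectors (circles) and 13 tested relatives (squares). *Ifi44*, *Rsad2*, *Cmpk2* and *Mx2* lie at -1.98 or below, whereas the relatives with a mean of at least 10 CPM lie between -0.21 and 0.14.

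*Rsad2* encodes viperin, a radical SAM enzyme that turns CTP into a chain terminator of viral RNA polymerases, and *Cmpk2* encodes a mitochondrial kinase that supplies such nucleotides. They are neighbours on chromosome 12. *Rsad2* (ENSMUSG00000020641.16) lies on the minus strand from 26442746 to 26456452 and *Cmpk2* (ENSMUSG00000020638.8) on the plus strand from 26469204 to 26479837, so that the genes point away from each other with 12751 bp and no annotated gene between them. *Rsad2* had 1856 and 1807 counts unloaded against 549 and 393 loaded, and both loaded libraries were far below the unloaded pair. Its level averaged 61.7 ± 3.03 CPM unloaded and 15.1 ± 2.70 CPM loaded (SD, n = 2 each; log2 fold change -2.03, SE 0.146). It was 4.09-fold lower with loading.

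*Cmpk2* had 571 and 601 counts unloaded against 149 and 159 loaded. The groups were far apart, and the unloaded replicates differed by only 0.01 on the log2 scale. The level averaged 19.7 ± 0.119 CPM unloaded and 4.97 ± 0.507 CPM loaded (SD, n = 2 each; log2 fold change -1.99, SE 0.156), 3.97-fold lower with loading. The neighbours kept a similar proportion. Per kilobase of exon, *Cmpk2* stood at 0.320 and 0.346 of the *Rsad2* level without loading and at 0.283 and 0.421 of it with loading, so the ranges of the groups overlapped.

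*Ifi44* (ENSMUSG00000028037.13, minus strand of chromosome 3, 151730922 to 151749960) encodes an interferon-induced GTP-binding protein with antiviral activity. There were 312 and 263 counts unloaded against 49 and 45 loaded, with no overlap. Expression averaged 9.70 ± 1.46 CPM unloaded and 1.51 ± 0.00604 CPM loaded (SD, n = 2 each; log2 fold change -2.68, SE 0.232). Loaded cells thus held 15.6% of the unloaded level, the lowest share among the effectors. Its relative *Ifi44l* had at most 9 counts in any library and was not tested.

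The MX proteins are dynamin-like GTPases that form rings around viral ribonucleoproteins. In the mouse MX1 acts in the nucleus and MX2 in the cytoplasm, and many inbred strains carry defective copies. *Mx2* (ENSMUSG00000023341.15, plus strand of chromosome 16, 97535308 to 97560900) is annotated as a polymorphic pseudogene in GENCODE M21, and *Mx1* (ENSMUSG00000000386.15, minus strand, 97447035 to 97462907) as protein coding. *Mx2* had 236 and 187 counts unloaded against 73 and 40 loaded. Replicates spread more than for *Rsad2*, but the lowest unloaded library was still 1.45 above the highest loaded library on the log2 scale. *Mx2* averaged 7.14 ± 1.38 CPM unloaded and 1.80 ± 0.650 CPM loaded (SD, n = 2 each; log2 fold change -1.98, SE 0.328).

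*Mx1* had 11 and 9 counts unloaded against 13 and 4 loaded. The groups overlapped. Over the summed counts the loaded level was 0.813 of the unloaded level, with an exact 95% interval of 0.400 to 1.63. That interval takes the deposited counts as plain read counts, which they may not be, and covers counting error only. It leaves out the spread between replicates, 1.59 on the log2 scale between the loaded libraries. Whether *Mx1* differed as much as *Mx2* therefore cannot be told at this depth. Without loaded replicate 2 the log2 fold change of *Mx1* turned from -0.32 to 0.25, and without loaded replicate 1 it was -1.30. Of the 50-base stretches in the *Mx2* transcripts, 4.38% also occur in *Mx1*, and reads from these stretches cannot be assigned by sequence.

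PKR, encoded by *Eif2ak2*, binds double-stranded RNA and phosphorylates the translation factor eIF2α, which stops protein synthesis. *Eif2ak2* (ENSMUSG00000024079.4, minus strand of chromosome 17, 78852564 to 78882573) had 3343 and 3076 counts unloaded against 2319 and 2278 loaded. The unloaded libraries were both higher. Its transcripts averaged 108 ± 9.62 CPM unloaded and 74.1 ± 3.23 CPM loaded (SD, n = 2 each; log2 fold change -0.55, SE 0.0959). The other kinases of eIF2α lay closer to 0 in log2 fold change: *Eif2ak1*, the heme-regulated kinase (0.05, SE 0.0888), *Eif2ak3*, the kinase of the endoplasmic reticulum (0.00, SE 0.106), and *Eif2ak4*, the amino acid sensor (-0.09, SE 0.0993). The difference between *Eif2ak2* and these kinases was not tested.

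ADAR1 converts adenosine to inosine in double-stranded RNA, which keeps the cell's own RNA from being sensed as viral. A long form comes from an interferon-inducible promoter and a shorter form from constitutive promoters, and the gene counts add both together. *Adar* (ENSMUSG00000027951.16, plus strand of chromosome 3, 89715022 to 89753446) had 3380 and 3769 counts unloaded against 3732 and 3519 loaded. The groups overlapped after scaling. *Adar* averaged 120 ± 5.63 CPM unloaded and 117 ± 1.71 CPM loaded (SD, n = 2 each; log2 fold change -0.04, SE 0.0745). The sign changed, to 0.01, without unloaded replicate 2. Exons of *Chrnb2* on the opposite strand overlap *Adar* over 1365 bases, but *Chrnb2* had 359 counts in all 4 libraries together. *Adarb1*, which encodes a related deaminase, was also measured (log2 fold change -0.18, SE 0.130).

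IFITM3 stiffens endosomal membranes and blocks the fusion of entering viruses, and tetherin, encoded by *Bst2*, holds budding virions on the cell surface. *Ifitm3* (ENSMUSG00000025492.6, minus strand of chromosome 7, 141009586 to 141010770) had 5674 and 6456 counts unloaded against 5220 and 4785 loaded. Both unloaded libraries were higher after scaling. *Ifitm3* averaged 204 ± 12.5 CPM unloaded and 161 ± 0.854 CPM loaded (SD, n = 2 each; log2 fold change -0.34, SE 0.0716). *Ifitm2*, its close relative, differed less (log2 fold change -0.21, SE 0.0844); the difference between the pair was not tested. *Ifitm1* was low, with 8 to 23 counts per library. Some 50-base stretches of *Ifitm3* also occur in transcripts of *Ifitm1*, *Ifitm2* or 3 predicted genes, so part of the counts could be exchanged between them.

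*Bst2* (ENSMUSG00000046718.8, minus strand of chromosome 8, 71534255 to 71537456) had 3205 and 3989 counts unloaded against 3144 and 2899 loaded. Its unloaded replicates lay 0.25 apart on the log2 scale, nearly as far as the groups. Tetherin transcripts averaged 121 ± 15.0 CPM unloaded and 97.3 ± 0.112 CPM loaded (SD, n = 2 each; log2 fold change -0.31, SE 0.102). Dropping single libraries moved the estimate between -0.43 and -0.18.

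SAMHD1 cleaves deoxynucleoside triphosphates and so starves reverse transcription. *Samhd1* (ENSMUSG00000027639.16, minus strand of chromosome 2, 157097533 to 157135265) had 3063 and 3346 counts unloaded against 3059 and 3074 loaded. The groups were separated by only 0.03 on the log2 scale. *Samhd1* averaged 108 ± 3.48 CPM unloaded and 98.9 ± 5.90 CPM loaded (SD, n = 2 each; log2 fold change -0.13, SE 0.0821). 

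Levels were compared between genes per kilobase of exon. In unloaded cells *Ifitm3* was highest, at 301 ± 18.4 CPM per kb (SD, n = 2), a level above 99.4% of the tested genes. *Bst2* followed at 134 ± 16.6 CPM per kb and *Eif2ak2* at 21.2 ± 1.88 CPM per kb. Next came *Adar* at 14.8 ± 0.694 and *Rsad2* at 14.2 ± 0.699 CPM per kb, whose values overlapped, and *Samhd1* at 11.8 ± 0.381 CPM per kb. *Cmpk2* stood at 4.74 ± 0.0286, *Mx2* at 1.98 ± 0.382 and *Ifi44* at 1.58 ± 0.238 CPM per kb, the values of *Mx2* and *Ifi44* overlapping. *Mx1* was lowest, at 0.0892 ± 0.0153 CPM per kb. Other neighbours in this order did not overlap between their 2 libraries. With the length of the longest transcript in place of all exons, *Samhd1* moved from the sixth to the third place.

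The effectors with the largest differences thus stood below *Ifitm3* and *Bst2* in level. In unloaded cells *Rsad2* still overlapped *Adar* and lay above *Samhd1* per kilobase of exon. With the longest transcript as length it averaged 14.7 CPM per kb, below *Adar* (20.4) and *Samhd1* (27.5). *Ifitm3* and *Bst2* together made up 85.1% and 87.0% of the summed level per length of the 10 effectors without loading, and 88.6% and 88.3% with it. *Rsad2*, *Cmpk2*, *Mx2* and *Ifi44* together made up 4.87% and 4.09% in unloaded and 1.51% and 1.27% in loaded libraries. Per kilobase of exon, *Rsad2* ranked below *Samhd1* in loaded cells and the other ranks were the same.

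**Figure D2:**
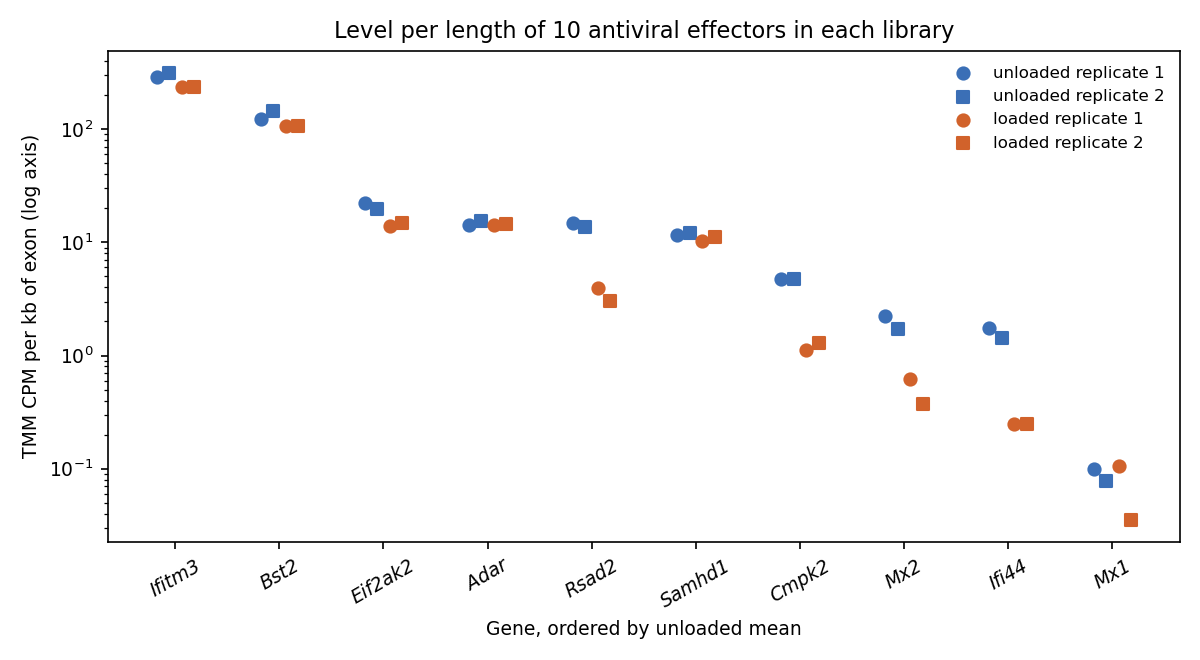
Level per length (y axis, TMM-scaled CPM per kilobase of exon, log axis) of each effector in the 2 unloaded (blue) and 2 loaded (orange) libraries, one point per library. The loaded points of *Rsad2*, *Cmpk2*, *Mx2* and *Ifi44* lie well below the unloaded points, those of *Ifitm3*, *Bst2*, *Eif2ak2* and *Samhd1* slightly below, and those of *Adar* and *Mx1* overlap them.

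Genes around the effectors were described from lists written by role. In the signalling chain that switches the effectors on, all 12 kinases and transcription factors had a negative log2 fold change, with a median of -0.67. None was called by edgeR at an adjusted p under 0.01, and 5 were called lower at an adjusted p under 0.05 (0.565% of all tested genes). At an unadjusted p under 0.05 there were 7, all of them lower (7.46% of all tested genes were lower and 6.88% higher). DESeq2 called 6 lower (1.55% of all genes with an adjusted p). The transcription factor genes *Stat2* (-0.81, SE 0.106) and *Irf9* (-0.79, SE 0.108) differed by similar amounts in log2 fold change. *Irf7*, which amplifies interferon production, showed the largest of the called differences (-1.75, SE 0.173), and the kinase *Jak1* was near 0 (-0.01, SE 0.0680).

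Of the interferon ligands and receptors, 5 of 12 were tested. All 5 were negative, with a median log2 fold change of -0.43. Of the type I receptor chains, *Ifnar1* was among the smallest differences (-0.20, SE 0.106) and *Ifnar2* differed more (-0.50, SE 0.108). In all 5 tested genes both unloaded libraries were above both loaded libraries, as in 24.5% of all tested genes. DESeq2 called 1 member lower, against 1.55% of all genes with an adjusted p. This was *Ifngr1*, a chain of the interferon gamma receptor (-1.02, SE 0.219). EdgeR called none, and 3 were lower at an unadjusted p under 0.05 (7.46% of all tested genes). Among the interferons *Ifnb1* had 8 and 31 counts unloaded against 4 and 0 loaded, and no other listed interferon passed 4 counts in any library. The list of feedback inhibitors was written by role and holds *Isg15*, whose part in feedback in these cells was not tested. Of its 8 genes 7 were negative, with a median of -0.18. EdgeR called none at an adjusted p under 0.01 and 1 lower at an adjusted p under 0.05 (0.565% of all tested genes). At an unadjusted p under 0.05 there were 3, all of them lower. DESeq2 called *Isg15* (-1.24, SE 0.104) and *Usp18* (-1.57, SE 0.233) lower.

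Of 10 tested sensors of nucleic acid and their adaptors 8 were negative, with a median of -0.61. EdgeR called none at an adjusted p under 0.01 and 5 lower at an adjusted p under 0.05 (0.565% of all tested genes). Of 6 with an unadjusted p under 0.05, 5 were lower, against 7.46% of all tested genes lower and 6.88% higher. DESeq2 called 5 lower (1.55% of all genes with an adjusted p). *Dhx58*, *Zbp1*, *Ikbke*, *Ifih1* and *Ddx58* stood between -1.85 and -0.71. The adaptor *Mavs* (-0.03, SE 0.123) and the kinase *Tbk1* (0.02, SE 0.0782) were near 0.

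A further list held restriction factors of other families. All 31 tested members had a negative log2 fold change, with a median of -0.56. EdgeR called none at an adjusted p under 0.01 and 7 lower at an adjusted p under 0.05 (0.565% of all tested genes). At an unadjusted p under 0.05 there were 25, all of them lower (7.46% of all tested genes). DESeq2 called 13 lower, against 1.55% of all genes with an adjusted p. Among them were *Herc6* (-1.07, SE 0.106), *Trim30a* (-1.04, SE 0.108), *Slfn8* (-0.86, SE 0.0941), *Samd9l* (-0.80, SE 0.0933), *Helz2* (-0.77, SE 0.0848) and *Slfn9* (-0.49, SE 0.0602). The smallest differences among abundant members were those of *N4bp1* (-0.11) and *Serinc3* (-0.11).

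Genes that share a family or a metabolic step with the effectors formed a further set of lists. Of 13 tested relatives 7 were negative, with a median of -0.02. Neither edgeR nor DESeq2 called any, and 1 was lower at an unadjusted p under 0.05 (7.46% of all tested genes were lower and 6.88% higher). *Cmpk1*, the cytosolic counterpart of *Cmpk2* (0.02, SE 0.0777), and the dynamin *Dnm1* (-0.02, SE 0.129) were near 0. Of 16 nucleotide pool genes 12 were negative, with a median of -0.13. Neither tool called any, and 1 had an unadjusted p under 0.05. *Rrm2*, a subunit of ribonucleotide reductase, was among the smallest differences (-0.02, SE 0.0637). In the eIF2 kinase pathway, 10 of 13 genes were positive, with a median of 0.09, and neither tool called any (5 with an unadjusted p under 0.05, of which 2 were lower). *Ddit3*, a target of that pathway, was near 0 (0.06, SE 0.0866).

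**Figure D3:**
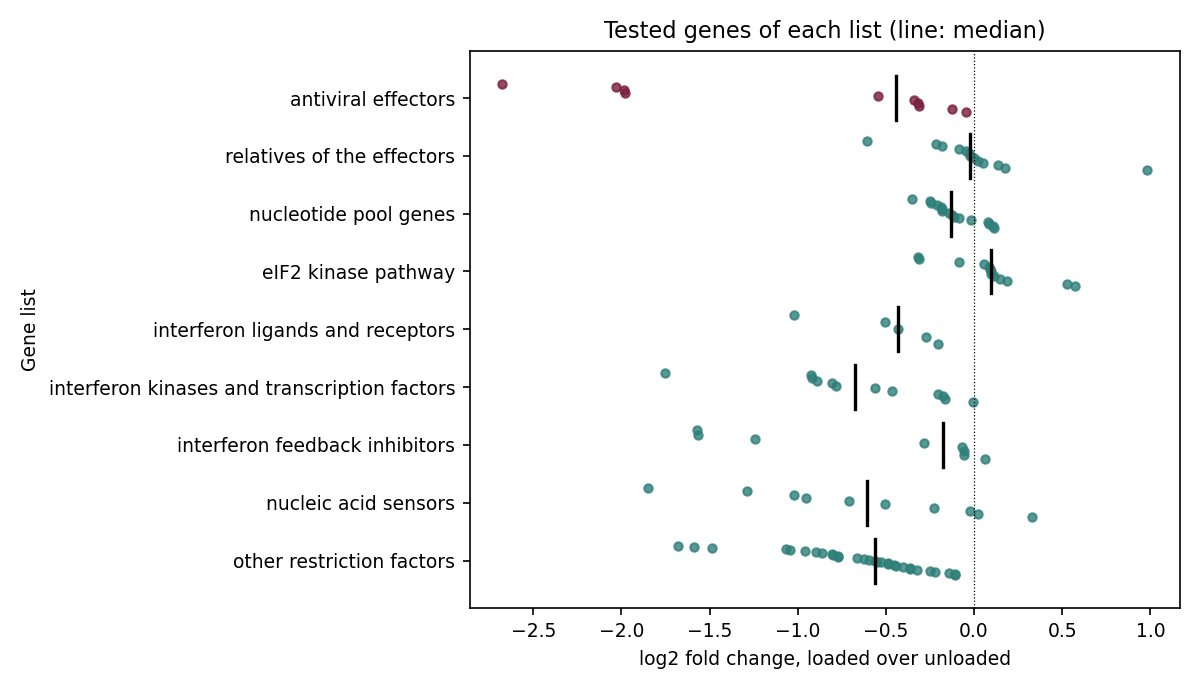
Log2 fold change of loaded over unloaded cells (x axis) for each tested gene of the antiviral effectors and of 8 gene lists (y axis). One point is 1 gene and the vertical line is the median of the list, -0.44 for the effectors. The 31 other restriction factors and the 12 kinases and transcription factors lie at or below 0, whereas the relatives spread to both sides of a median of -0.02.

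The ISRE core was then set against the loading contrast in all tested genes with a promoter window, leaving out the effectors. Of 389 genes with the core 8.48% were at least 2-fold lower in loaded cells, and of 10192 genes without it 2.34%. DESeq2 called 39 of 340 genes with the core lower (11.5%) and 99 of 8813 genes without it (1.12%). The medians were close, at -0.07 with the core and -0.01 without it. For the GAS core, an element of interferon gamma targets, the shares at least 2-fold lower were 3.91% with and 2.44% without the motif. For the core of the antioxidant response element, bound by NRF2, they were 2.65% and 2.54%. Shares of genes at least 2-fold higher in loaded cells were not computed for any motif, so these values do not describe genes that rose with loading. Both strands were searched for each motif, and the shares are descriptions over genes, which are not independent replicates.

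**Figure D4:**
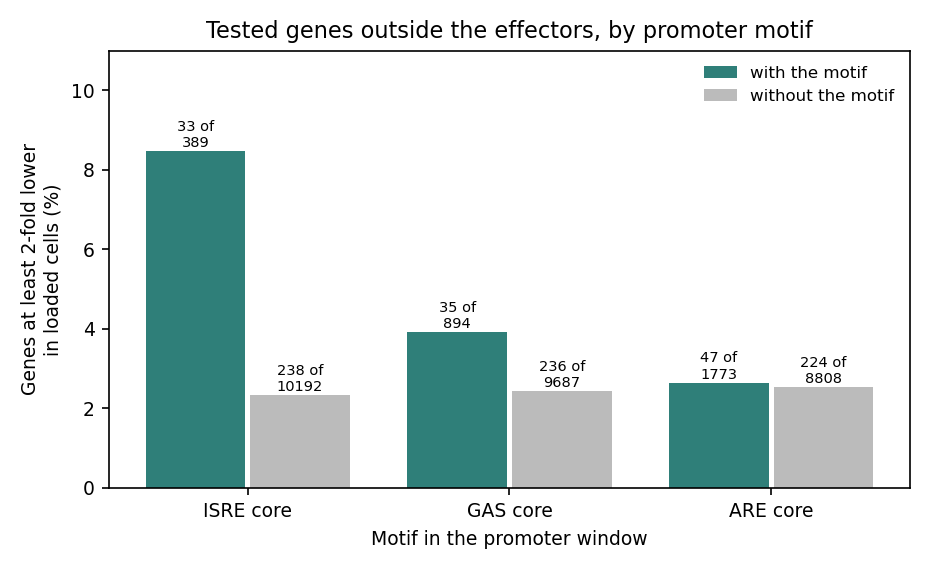
Share of tested genes outside the 10 effectors that were at least 2-fold lower in loaded cells (y axis, percent), for genes with (green) and without (grey) each motif in a promoter window of 300 bases. The numbers over the bars are the genes at least 2-fold lower and all genes in the class, 33 of 389 with the ISRE core.

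Among the effectors, genes with large and with small log2 fold changes stood on both sides. The genes with the core were *Rsad2* (-2.03), *Eif2ak2* (-0.55), *Ifitm3* (-0.34) and *Bst2* (-0.31). The genes without an exact match to it were *Ifi44* (-2.68), *Cmpk2* (-1.99), *Samhd1* (-0.13) and *Adar* (-0.04). Of the other restriction factors 11 of 31 with a window held the core, *Trim30a*, *Slfn8* and *Slfn9* among them. The core was in 3 of 11 genes of the eIF2 kinase pathway, *Eif2s1*, *Eif2s3x* and *Ppp1r15a*, whose log2 fold changes were positive (0.09, 0.18 and 0.57). It was in 2 of 11 interferon kinases and transcription factors, 2 of 6 feedback inhibitors, 2 of 7 sensors and 2 of 18 relatives, and in none of 11 ligands and receptors or 15 nucleotide pool genes.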

How the data were processed

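RNA-seq of 2 unloaded and 2 loaded MLO-Y4 samples was used. The authors depleted ribosomal RNA, mapped trimmed reads to mm10 with HISAT2 2.1.0, assembled transcripts with StringTie 1.3.5 and deposited whole-number counts per gene made with the prepDE script, without normalization. The strand setting and annotation release are not given in the sources used here. All 55450 gene identifiers matched GENCODE M21 (GRCm38), which supplied coordinates and exon lengths. Genes were filtered with filterByExpr (count minimum 10, 16269 kept, all 10 effectors among them), scaled by TMM and fitted in edgeR 4.0.16 (R 4.3.3, quasi-likelihood F test). P-values were adjusted by Benjamini-Hochberg across the 16269 genes, and the study's threshold of 0.01 was kept. The standard error (SE) is the log2 fold change over the square root of F. The common biological coefficient of variation was 16.6%. DESeq2 1.42.0 was the main alternative; it gave no adjusted p for *Mx1*. Chi-square per degree of freedom between replicates was 17.6 and 19.0, so no library was a duplicate. The fit was tested on simulated data.

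The effectors and gene lists were chosen with earlier results of these data known. Named list genes were those called by either tool (at most 6 by smallest p), the 2 with the smallest difference at 10 CPM or more, and stated relatives; 1 gene that the rule names is not reported here. Other named genes (*Ifnb1*, *Ifnar2*, *Chrnb2*, *Eif2s1*, *Eif2s3x*, *Ppp1r15a* and the cell markers) were added after their values were seen. Promoter windows came from the RefSeq table and were searched for exact matches on both strands with Python 3.11.15. The floor of a count of 0 was 3 counts per library, 0.0929 to 0.103 CPM, and covers counting error only. It takes the deposited counts as plain read counts. It does not cover a gene with 0 counts in some libraries and clear counts in others, such as *Pecam1*.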

Additional observations from a re-analysis of the deposited data

How the results depend on the processing

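With 2 libraries per group, the number of genes past the threshold depended on the test. The calls were 14 genes lower and 2 higher with 1 effector lower in edgeR, and 193 lower, 170 higher and 5 effectors lower with DESeq2. Requiring 10 counts in every library gave 25 lower, 4 higher and 3 effectors lower, and removed *Mx1*, so that the median of the remaining effectors was -0.54. At an adjusted p under 0.05 there were 92 lower, 55 higher and 3 effectors. Without a filter on low counts 0 genes and 0 effectors were called in either direction (2435 with an unadjusted p under 0.05), and with upper-quartile factors 13 genes and 0 effectors were called lower.

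With the replicate number as a replicate block in edgeR 0 genes and 0 effectors were called (1839 with an unadjusted p under 0.05; 3 effectors at an adjusted p under 0.05). Same-numbered libraries did not deviate together (correlation across genes -0.06 over all tested genes and -0.11 over genes of at least 1 CPM). A crossed pairing, added after the data were seen, called 2 genes lower, 0 higher and 0 effectors.

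Leaving out each library in turn, with the lone sample assumed to vary like the other group, gave 0 to 25 genes lower, 0 to 18 higher and 0 to 1 effectors. Without either loaded replicate no gene was called, and without either unloaded replicate *Rsad2* was. The median of the effectors ranged from -0.90 to -0.44. *Ifi44*, *Rsad2*, *Cmpk2*, *Mx2*, *Eif2ak2*, *Ifitm3*, *Bst2* and *Samhd1* had a negative log2 fold change under all 10 alternatives run for each. With the longest transcript as length 6 of 10 effectors kept their rank. The shorter ISRE core was found in 8.56% of windows. The cause of these differences was not tested.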

Other observations

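The 5 genes whose profile over the 4 libraries lay closest to the mean profile of the effectors, among 9677 genes with a mean of at least 10 CPM, were *Lpcat1*, *Itgb2*, *Bphl*, *Gbp4* and *C3* (root mean square distance 0.0438 to 0.0662 on the log2 scale). *Gbp4* encodes an interferon-induced guanylate-binding protein and *C3* the central complement component, whereas *Lpcat1* encodes an enzyme of phospholipid remodelling. *Lpcat1* stood at 58.4 and 54.7 CPM in unloaded and 27.7 and 26.6 CPM in loaded libraries. *Itgb2*, the beta chain of leukocyte integrins, stood at 99.3 and 86.4 CPM in unloaded and 46.3 and 43.2 CPM in loaded libraries, in cells whose *Ptprc* did not pass 3 counts. The log2 fold changes of the 5 genes, -1.14 to -0.93, lay apart from those of every effector. *Ifi44*, *Rsad2*, *Cmpk2* and *Mx2* stood at -1.98 or lower and the other effectors at -0.55 or higher. With 4 libraries many profiles are alike, and no shared control follows from this.

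None of the 8 other annotated genes within 200000 bp of the *Rsad2* and *Cmpk2* pair had a count in any library, *Rnf144a* included. Zeros can stand beside clear counts in these data, as for *Pecam1* with 29 and 29 counts unloaded and 32 and 0 loaded. A count of 0 therefore does not show that a gene was silent. Around *Mx1* and *Mx2*, 1 of 8 other genes was tested, the processed pseudogene *Gm9242* (log2 fold change 0.04, SE 0.372).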
